A study of Mus musculus with 3 samples.

Results

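The Egr, Ier and Btg genes examined here are 9 immediate early genes, Egr1, Egr2, Egr3, Egr4, Ier2, Ier3, Ier5, Btg1 and Btg2, taken by gene symbol. Each of the 9 symbols named 1 row among the 24411 genes of the deposited tables. They were measured by RNA sequencing in microglia from C57BL/6J mouse brain, in 3 replicate libraries of a single group. The labels gave an age of 6 to 8 weeks, the genotype cKO and treatment with a Pu.1 inhibitor, an agent against the myeloid transcription factor encoded by Spi1. In the cKO, floxed Mir137 (loxP/loxP) is removed by a CreERT2 recombinase under Tmem119, a gene used to mark microglia, after tamoxifen on 7 consecutive days at 7 to 8 weeks of age. The labelled age and this schedule do not match at their lower ends, and which age the libraries had is not settled here. All 3 libraries shared both the deletion and the inhibitor. Microglia without either were not analysed here, so the values are levels and not effects of the deletion or of the inhibitor. The labels did not state that the replicates were separate animals or cultures, and p-values between libraries therefore cover a spread that may be technical.

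Immediate early genes are transcribed within minutes of a stimulus without new protein synthesis, mostly through ERK signalling to the transcription factors SRF and CREB, and their transcripts are short-lived. In microglia several of them also respond to the handling of the tissue during isolation. The EGR proteins are zinc-finger transcription factors that bind GC-rich sites and are held in check by the corepressors NAB1 and NAB2. The IER proteins carry no DNA-binding domain of that kind: IER2 is a nuclear regulator, IER3 modulates cell survival and ERK signalling, and IER5 brings the phosphatase PP2A to the heat shock factor HSF1. BTG1 and BTG2 are antiproliferative proteins that recruit the CCR4-NOT complex, which shortens the poly(A) tails of messenger RNAs.

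Sequences around the start sites are shown first, because SRF and CREB act on immediate early genes through short motifs there. RefSeq promoter windows of GRCm38.p6, running from 250 bases before to 50 bases after an annotated start, were matched for 6 of the 9 genes (Btg1, Btg2, Egr2, Egr4, Ier3 and Ier5), with 10 windows in all. Both strands were searched for the CArG box, the binding site of SRF, for the cyclic AMP response element TGACGTCA, bound by CREB, for the AP-1 site TGANTCA, the EGR site GCGTGGGCG, the PU.1 site GAGGAAGT and the TATA box TATAAA. No motif contains another, and no matches overlapped. Matches were found in Egr2, Btg2 and Btg1 and are in capitals in the windows that follow: a CArG box in both Egr2 windows, a cyclic AMP response element in Btg2 and a TATA box in Btg1.
Egr2 (chr10:67537619-67537918, plus strand): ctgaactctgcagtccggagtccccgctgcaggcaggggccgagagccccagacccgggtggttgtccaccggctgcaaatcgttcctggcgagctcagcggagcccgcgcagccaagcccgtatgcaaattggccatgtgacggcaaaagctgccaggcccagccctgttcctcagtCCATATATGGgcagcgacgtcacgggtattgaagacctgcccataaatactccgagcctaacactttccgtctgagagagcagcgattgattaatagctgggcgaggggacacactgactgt
Egr2, upstream start (chr10:67537316-67537615, plus strand): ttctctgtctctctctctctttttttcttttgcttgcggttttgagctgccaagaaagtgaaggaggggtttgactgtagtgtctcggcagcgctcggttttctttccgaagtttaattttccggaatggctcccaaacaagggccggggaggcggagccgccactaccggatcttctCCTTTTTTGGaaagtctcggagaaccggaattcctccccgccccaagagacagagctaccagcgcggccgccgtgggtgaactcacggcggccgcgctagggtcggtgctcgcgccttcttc
Btg2 (chr1:134079106-134079405, minus strand): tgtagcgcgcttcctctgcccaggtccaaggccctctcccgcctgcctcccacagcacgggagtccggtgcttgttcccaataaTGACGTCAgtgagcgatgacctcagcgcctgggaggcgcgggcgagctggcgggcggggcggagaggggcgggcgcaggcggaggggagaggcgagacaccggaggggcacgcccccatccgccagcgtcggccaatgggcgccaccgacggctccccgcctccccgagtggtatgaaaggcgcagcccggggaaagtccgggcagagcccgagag
Btg1 (chr10:96616751-96617050, plus strand): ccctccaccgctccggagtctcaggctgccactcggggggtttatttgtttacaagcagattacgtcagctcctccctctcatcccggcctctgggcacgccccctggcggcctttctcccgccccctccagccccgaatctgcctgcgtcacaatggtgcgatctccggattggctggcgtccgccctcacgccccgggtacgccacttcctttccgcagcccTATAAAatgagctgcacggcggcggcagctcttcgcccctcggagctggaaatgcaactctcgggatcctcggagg

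The CArG box of the first Egr2 window lay at bases -72 to -63 from the annotated start, and the 2 other overlapping Egr2 windows held the same box. The box of the upstream Egr2 window also lay at -72 to -63 from its own start. Over the 20788 windows of genes in the tables, 1.44% held a CArG box, 2.31% the cyclic AMP response element and 12.2% the TATA box. In Btg2 the response element lay at -166 to -159, and in Btg1 the TATA box at -26 to -21. The windows of Egr4, Ier3 and Ier5 and the remaining window of Egr2 held none of the 6 motifs as given. Only exact matches were counted, so a near match to the TATA box such as tatataag, in the windows of Egr4 and Ier5, was left out. In the letters searched, the PU.1 site, present in 3.13% of windows, the EGR site (0.847%) and the AP-1 site (7.29%) were in no window of the 6 genes. Variants of these sites were not searched, so their absence is not shown. A match is a run of letters and not a measured binding site.

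Since all libraries carried the Mir137 deletion, the part of each transcript after the stop codon was searched for a match to the seed of miR-137-3p. A microRNA pairs with its targets mainly through the seed, bases 2 to 8, which is in capitals here.
mmu-miR-137-3p: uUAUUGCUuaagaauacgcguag
The match AGCAATA occurred 2 times in Egr2 and was not found in the other 8 genes, in the GENCODE M21 transcript with the longest 3′ untranslated region of each gene. Both stretches of Egr2 are shown with the match in capitals, the first starting at base 551 and the second at base 605 after the stop codon.
Egr2 site at 551: tcaacccttaAGCAATAtgtcctagaa
Egr2 site at 605: ggcaggacaaAGCAATAttggctcctt
The untranslated region of Egr2 is 1200 bases long, and 7.81% of 2575 genes with regions within 20% of that length held at least 1 match. Over all 19344 genes with such a region the share was 10.1%. The AU-rich pentamer ATTTA, the core of elements through which short-lived transcripts are degraded, occurred 11 times in Btg1, 7 times in Egr3, 5 times each in Btg2 and Ier3, 3 times in Egr2, 2 times each in Egr1 and Ier5, and not in Ier2 or Egr4. Regions of the length of that of Ier3 held it in 56.9% of genes and regions of the length of that of Btg1 in 98.2%, so its presence in the longer regions is common. The longer nonamer TTATTTATT was in none of the 9 and in 7.8% of all genes.

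The most abundant of the 9 genes was Egr1, and expression within the Egr family was concentrated on it. Levels are given as FPKM, which is scaled to transcript length and library size and allows genes of different length to be set side by side. Egr1 (GRCm38 chromosome 18, 34859823 to 34864984) was at 949, 867 and 989.9 FPKM in replicates 1, 2 and 3, a mean of 935 ± 62.5 FPKM (SD, n = 3, as for all means in this form). The estimated counts behind these values were 45531, 37999 and 45197. Replicate 2 was the lowest, and Egr1 ranked 70th of all 24411 genes by mean FPKM and 24th by mean count.

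Egr2, which is required for Schwann cell myelination and is also induced in myeloid cells (chromosome 10, 67535475 to 67542188), was at 8.85, 10.5 and 10.9 FPKM, from 408, 444 and 477 counts. Its mean was 10.1 ± 1.08 FPKM, with replicate 1 lowest. Egr3 (chromosome 14, 70077203 to 70082614) was at 1.06, 1.03 and 1.36 FPKM, with 65, 57 and 78 counts and a mean of 1.15 ± 0.18 FPKM. Both genes lay far below Egr1, and none of the ranges of the 3 genes overlapped.

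Egr4 (chromosome 6, 85511121 to 85513589) had 0 counts in every library, which allows a level as high as 0.175 CPM in replicate 1, 0.191 in replicate 2 and 0.183 in replicate 3 (3 counts, counting error only; CPM divides counts by the library total). Egr4 was therefore not detectable at this depth. Within a library, Egr1 exceeded Egr2 by 107, 82.3 and 91.1 times and Egr3 by 896, 842 and 728 times in FPKM. Of the summed FPKM of the 4 genes, 98.8 ± 0.14% came from Egr1, 1.07 ± 0.14% from Egr2 and 0.121 ± 0.013% from Egr3.

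The 3 Ier genes were all abundant and differed from each other far less than the Egr genes. Ier2 (chromosome 8, 84661331 to 84662852), an intronless gene, was at 441, 418 and 445 FPKM, a mean of 435 ± 14.5 FPKM. Ier5 (chromosome 1, 155096361 to 155099636), also with a single exon, was at 249, 244 and 236 FPKM, a mean of 243 ± 6.60 FPKM. Ier3 (chromosome 17, 35821684 to 35822923, 2 exons) was at 217, 225 and 220.0 FPKM, a mean of 220.5 ± 3.83 FPKM. Ier2 was above the other 2 genes in every library, and it made up 48.4 ± 1.15% of their summed FPKM, against 27.0 ± 0.76% for Ier5 and 24.6 ± 0.71% for Ier3. The replicates of Ier5 and Ier3 came close without overlapping: the lowest Ier5 value was 235.6 FPKM and the highest Ier3 value 224.6 FPKM.

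Both Btg genes were expressed, with Btg2 above Btg1 in every library. Btg2 (chromosome 1, 134075170 to 134079120), which is also a target of the tumour suppressor p53, was at 467, 451 and 501 FPKM, a mean of 473 ± 25.4 FPKM. Btg1 (chromosome 10, 96617006 to 96622809) was at 159, 150.3 and 163 FPKM, a mean of 157 ± 6.38 FPKM. The ratio of Btg2 to Btg1 was 2.94, 3.004 and 3.08, so it varied little between the libraries. The Btg1 pseudogenes in the tables, Btg1-ps1 and Btg1-ps2, had 0 counts in every library.

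Set in order of mean FPKM, the genes ran Egr1, Btg2, Ier2, Ier5, Ier3, Btg1, Egr2, Egr3 and Egr4, and the ranges of the 3 replicates were apart for all 8 neighbouring pairs. The narrowest step was from Btg2 to Ier2, where the lowest Btg2 value was 451 and the highest Ier2 value 445 FPKM, a mean difference of 0.12 ± 0.05 in log2(FPKM + 1). The step from Ier5 to Ier3 was 0.14 ± 0.05. Among the 8 genes with counts the widest step was from Btg1 to Egr2, 3.84 ± 0.16, and it divided 6 genes above 100 FPKM from 3 genes near or under 10 FPKM. The step from Egr3 to Egr4, which is at 0, is set by the pseudocount: it was 1.10 with a pseudocount of 1 and 3.63 with one of 0.1. Flipping the signs of the within-library differences in an exact permutation test, two-sided, gave p = 0.25 for each of the 8 steps (adjusted p = 0.25), the smallest that 3 libraries allow. The order and the size of the steps depended on the correction for length: in CPM, which is not per length, Ier5 stood 0.43 log2 units above Ier2, a difference of -0.43 for Ier2 minus Ier5, and Ier3 minus Btg1 was -2.05. The narrow steps were wider in CPM, at 1.29 for Btg2 minus Ier2 and 2.02 for Ier5 minus Ier3.

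**Figure D1:**
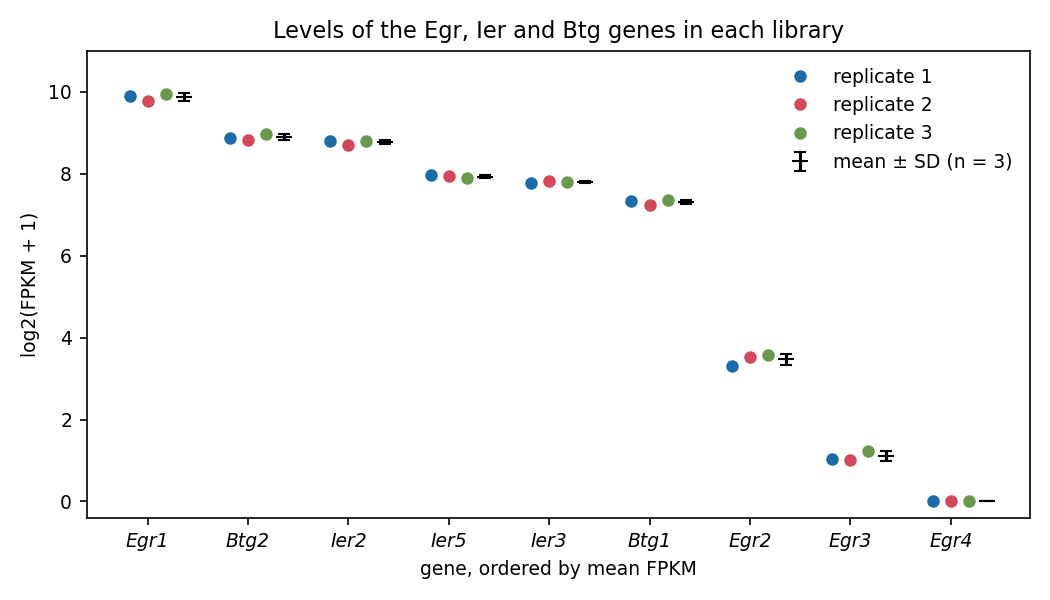
Level of each of the 9 genes, as log2(FPKM + 1) on the vertical axis, in replicates 1, 2 and 3 (coloured points) with the mean and SD over the 3 libraries (black). Egr1 is highest, 6 genes lie above 7 on this scale, and Egr2, Egr3 and Egr4 lie at or below 3.6.

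The length that enters FPKM was recovered from the ratio of count to FPKM and compared with the annotation. It was 2792 bases for Egr1, where GENCODE M21 lists coding transcripts of 3036 and 4484 bases, and 3522 for Egr3, with transcripts of 1509 and 3940 bases. For Btg2 it was 2803 bases, longer than the only coding transcript of 2743 bases in GENCODE M21, so the gene models behind the deposited values were not those of that annotation throughout. All 9 genes had whole-number counts, and no other annotated gene overlapped any of them.

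By detection the set stood high among all genes, with the exception of the lower Egr genes. At least 1 FPKM in all 3 libraries was reached by 8 of the 9 genes, against 47.8% of all genes, and Egr3 only just passed, with its lowest value at 1.03 FPKM. A mean of at least 100 FPKM was reached by 6 of the 9, against 3.12% of all genes. The median over the 9 genes of log2(FPKM + 1) was 7.79 ± 0.02, beside 0.95 ± 0.02 over all genes. Together the 9 genes took 0.620, 0.585 and 0.641% of the counts of replicates 1, 2 and 3.

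The 9 genes were spread through the range of the other immediate early genes, which ran from 0.027 to 2678 FPKM, and 5 of the others lay above Egr1. Of 43 other immediate early genes 38 were detected, with a median level of 5.04 ± 0.03. The highest were Rhob, a small GTPase, at 2678 ± 87.8 FPKM, the AP-1 subunit Fos at 2083 ± 31.9 FPKM and the MAP kinase phosphatase Dusp1 at 1848 ± 16.1 FPKM. The lowest was Npas4, an activity-dependent gene of neurons, at 0.027 ± 0.031 FPKM. The 5 that did not reach 1 FPKM in all 3 libraries were Fosl1, Nr4a2, Nr4a3, Arc and Npas4. Of these Nr4a3 missed only in replicate 2, at 0.93 FPKM, and had 94, 77 and 98 counts in replicates 1, 2 and 3. Nr4a2 had 37, 28 and 41 counts. Among the 52 genes together Egr1 took place 6, Btg2 place 10, Ier2 place 11, Ier5 place 17, Ier3 place 18, Btg1 place 20, Egr2 place 41, Egr3 place 46 and Egr4 place 52.

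Closest to each gene, by Euclidean distance of log2(FPKM + 1) over the 3 libraries within that list, were genes of similar level, since level dominates this measure. Egr1 was nearest to Junb (distance 0.19, 930.3 ± 25.9 FPKM) and Ier2 to Jund (0.14, 416 ± 9.24 FPKM). Btg2 was nearest to Nfkbia (0.35) and Btg1 to Fosb (0.27). Ier5 was nearest to Klf6 (0.29), and Ier3 to Cebpb (0.50) and Klf6 (0.51). In the low range Egr2 was nearest to Ptgs2 (0.21) and Maff (0.41), Egr3 to Nr4a3 (0.17) and Nr4a2 (0.51), and Egr4 to Npas4 (0.089) and Fosl1 (0.26).

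**Figure D2:**
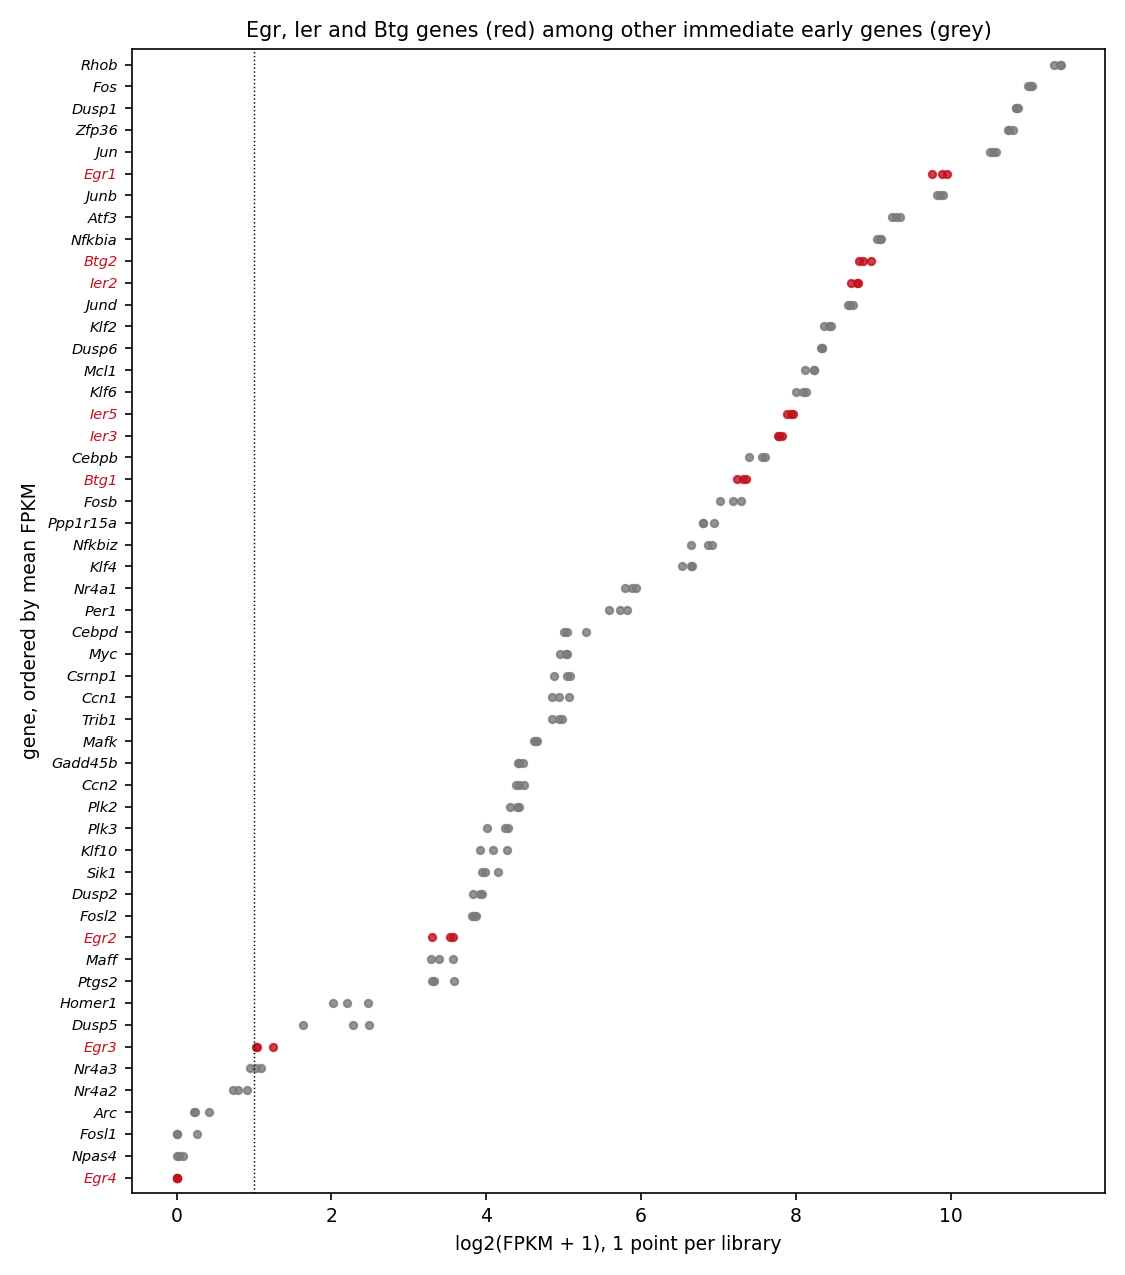
The 9 genes (red) among 43 other immediate early genes (grey), ordered by mean FPKM, with log2(FPKM + 1) in each of the 3 libraries on the horizontal axis and the dotted line at 1 FPKM. Egr1 is in place 6 of 52 and Egr4 in place 52, and the 5 grey genes at the bottom are those not detected in all libraries.

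All 19 genes of a list associated with activation of microglia during isolation were detected, and each had a mean of at least 100 FPKM. The list holds none of the 9 genes, and 13 of its genes are also among the 43 other immediate early genes. It was chosen for the present report, so the absence of the 9 genes from it does not show that they are unaffected by isolation. Its median level was 9.29 ± 0.05, with Nfkbiz, a regulator of NF-kB target genes, lowest at 112 ± 11.1 FPKM. The part of isolation in the levels of the 9 genes was not tested.

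The machinery that switches immediate early genes on was expressed at moderate levels. All 12 SRF and CREB regulators were detected, at a median level of 3.76 ± 0.03. Of the ternary complex factors that bind beside SRF, Elk3 was the highest at 34.2 ± 0.39 FPKM and Elk1 the lowest of the whole list at 2.17 ± 0.34 FPKM. Atf1, a relative of CREB, was at 32.4 ± 2.54 FPKM and the CREB coactivator Crtc2 at 22.6 ± 1.99 FPKM. All 14 genes of the ERK cascade were detected, at a median of 4.77 ± 0.06. The ERK-dependent kinase gene Rps6ka1 was at 122 ± 4.61, Mapk3, which encodes ERK1, at 121 ± 7.90 and its activator Map2k1 at 67.2 ± 1.62 FPKM, with the scaffold Ksr1 lowest at 4.25 ± 0.44 FPKM.

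The partners of the proteins were likewise lower than Egr1, Btg2 and Ier2, but not lower than all abundant genes of the set. Pabpc1, at 257 FPKM, lay above Ier5, Ier3 and Btg1, and Ppp2ca, at 175 FPKM, lay above Btg1, at 157 FPKM. The EGR corepressor genes Nab1 and Nab2 were at 11.9 ± 0.58 and 8.53 ± 0.56 FPKM, so that Egr1 exceeded Nab1 by 78.5 ± 2.38 times and Nab2 by 110 ± 0.66 times. Wt1, a zinc-finger gene related to the Egr family, had no count. Of the other BTG and TOB genes, Tob2 was at 36.5 ± 1.64, Btg3 at 25.0 ± 4.87 and Tob1 at 22.7 ± 1.49 FPKM, while Btg4 was not detected, with 2 counts in replicate 1 and 0 in the others. Btg2 exceeded Tob2 by 12.9 ± 0.43 times. Counts of Btg3 were not whole in every library, so reads may be divided with another gene.

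All 16 genes of the deadenylation list were detected, at a median of 4.76 ± 0.07. They include the poly(A)-binding protein gene Pabpc1 at 257 ± 4.42 FPKM, the deadenylase gene Cnot8 at 93.8 ± 5.21 FPKM and Prmt1, an arginine methyltransferase that binds BTG1 and BTG2, at 68.1 ± 4.26 FPKM. Pan2 was lowest at 8.41 ± 1.06 FPKM. All 13 genes of the list of Ier5l, Hsf1 and PP2A subunits were detected, at a median of 4.67 ± 0.06. The catalytic subunit gene Ppp2ca was at 175 ± 3.77, the scaffold Ppp2r1a at 88.7 ± 6.40 and the regulatory subunit gene Ppp2r5c at 61.9 ± 1.79 FPKM. Ier5l, the relative of Ier5, was the lowest at 3.71 ± 0.27 FPKM, and Ier5 exceeded it by 65.8 ± 6.53 times.

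**Figure D3:**
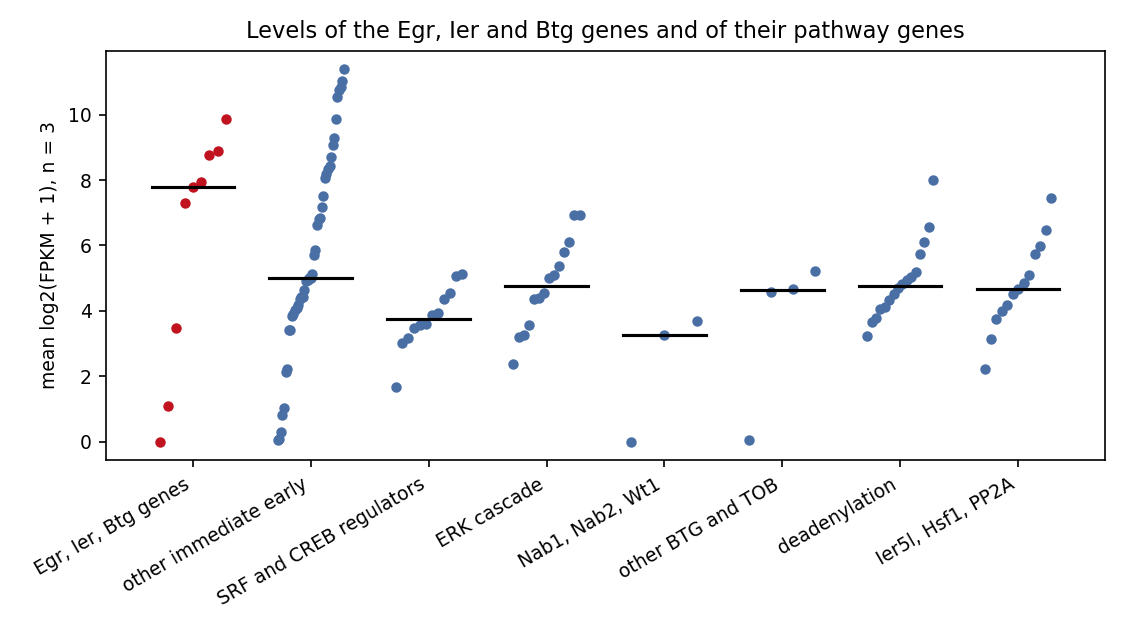
Mean log2(FPKM + 1) over the 3 libraries for each gene (points) of the 9 genes and of 7 lists of related genes, with the median of each list (black line). The median of the 9 genes is 7.79, that of the other immediate early genes 5.04, and those of the remaining lists lie between 3.2 and 4.8.

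Differences between the libraries were small for most of these genes. On CPM normalised by TMM, a scaling by the typical gene, the coefficient of variation over the 3 libraries was 1.66% for Ier3, 2.81% for Ier5, 3.31% for Ier2, 3.94% for Btg1, 5.26% for Btg2, 6.58% for Egr1, 10.7% for Egr2 and 15.1% for Egr3. The median over the 8 genes was 4.60%, beside 8.35% over the 13246 genes that passed the filter on low counts. Counting error is larger for genes with few counts, and the 2 medians were not matched for depth. Other lists had medians of 4.74% (other immediate early genes), 2.86% (activation during isolation) and 2.59% (microglial markers). Counting error alone gives 0.483% for Egr1 and 12.2% for Egr3, so the spread of Egr3 was near what its depth allows, while that of Egr1 was not.

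Whether the 3 counts of a gene differed by more than counting error was tested by chi-square, given TMM library sizes and with Benjamini-Hochberg adjustment over all genes tested. The test called 6 of the 8 genes, against 41.4% of all genes. The test compares libraries and responds to depth, so abundant genes pass it with small differences. The called genes were Egr1 (adjusted p = 3.99e-76), Btg2 (3.69e-24), Btg1 (2.45e-07), Ier5 (0.000514), Ier2 (0.000551) and Egr2 (0.0173). Egr3 (adjusted p = 0.314) and Ier3 (0.541) were not called, and Egr4 was not tested. Single libraries decided several of these calls: the adjusted p was 0.798 for Egr2 without replicate 1, 0.755 for Ier2 and 0.218 for Btg1 without replicate 2, and 0.288 for Ier5 without replicate 3. Egr1 and Btg2 were called whichever library was left out. The number called was 5 of 8 without replicate 1 (28.2% of all genes), 4 without replicate 2 (18.6%) and 5 without replicate 3 (23.5%).

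In TMM-normalised CPM, replicate 2 was the lowest library for 5 of the 8 genes, Egr1, Egr3, Ier2, Btg1 and Btg2, against 35.4% of all genes tested. In normalised counts it lay below the mean of the other 2 libraries by 10.4% for Egr1, 6.58% for Btg2, 6.41% for Btg1 and 5.59% for Ier2. In this unit Ier3 and Ier5 were not lowest there, and Egr2 was lowest in replicate 1. The pattern depends on the unit. In TPM, which rescales FPKM to the same total in each library, Ier3 (404, 400.5 and 415.8) and Ier5 (463, 434.9 and 445.3) were also lowest in replicate 2. The share of all genes lowest there in TPM was not computed. Of 40 other immediate early genes tested, 27 were called, against 41.4% of all genes, and 16 of these 27 were lowest in replicate 2, against 37.7% of all genes called. Replicate 2 also had the fewest counts, and longer genes had lower values in it: across 13237 genes the Spearman correlation of its deviation with effective length was -0.29, against 0.07 and 0.25 in replicates 1 and 3. With that trend removed 6 of the 8 genes were called, against 36.4% of all genes. Egr1 and Btg2 were still called (adjusted p = 1.82e-76 and 3.01e-25), Btg1 was not (0.185), and Ier3 was (0.0247). Ier5 (0.00189) and Egr2 (0.0164) also stayed called. For Ier2 the adjusted p fell to 2.19e-15, from 0.000551 with the trend left in.

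**Figure D4:**
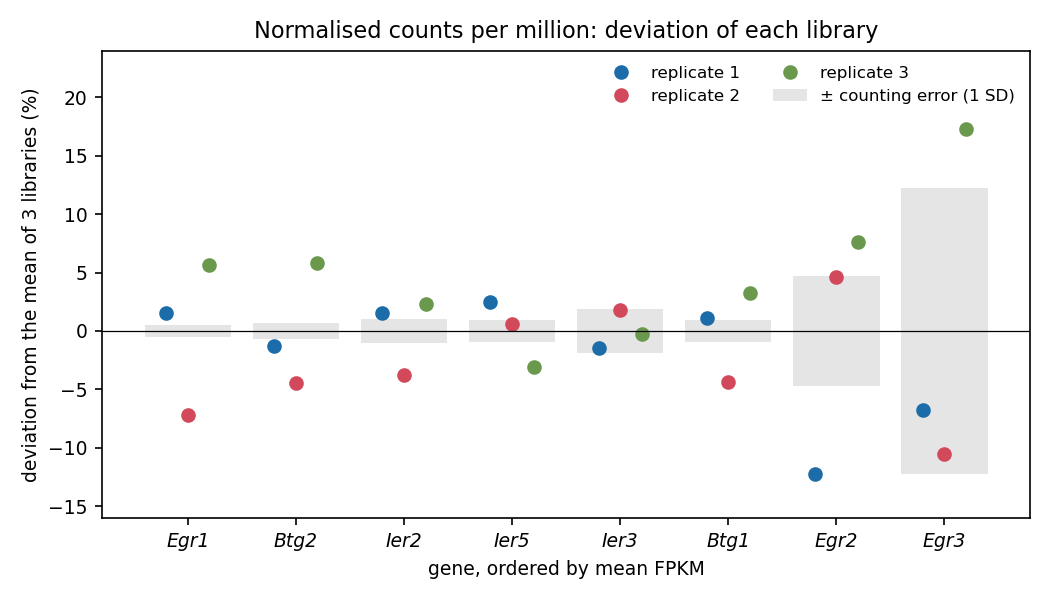
Deviation of each library from the mean of the 3, in percent of TMM-normalised CPM, for the 8 genes with counts, and counting error of 1 SD (grey bars). Replicate 2 (red) is lowest for Egr1, Btg2, Ier2, Btg1 and Egr3, and the points of Ier3 lie within or near its counting error.

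The libraries held 15710750 to 17180404 estimated counts. All 10 microglial markers were detected, with a summed level of 13394 to 13980 FPKM over the libraries. All 10 neutrophil markers were detected (13805 to 15220 FPKM, carried by S100a8 and S100a9). FPKM weighs short transcripts more, and the effective lengths of S100a8 and S100a9 were 113 and 241 bases. By share of counts the neutrophil markers held 0.327 ± 0.013%, against 3.03 ± 0.04% for the microglial markers. Also detected were all 6 monocyte markers (577 to 660.1 FPKM), all 6 border macrophage markers (286 to 311 FPKM) and all 8 endothelial markers (2006 to 2193 FPKM). All 5 choroid plexus and ependymal markers (6227 to 7102 FPKM), all 6 astrocyte markers (154 to 170.1 FPKM) and all 6 oligodendrocyte markers (209 to 259.8 FPKM) were detected too, but 3 of 7 neuronal markers (18.6 to 20.9 FPKM, with Nefl at 0) and 2 of 6 lymphocyte markers (18.4 to 24.1 FPKM). A single gene gave a large part of several sums. Mean FPKM was 5690 for Ttr (choroid plexus), 1038 for Ly6c1 (endothelial), 335 for Chil3 (monocyte) and 101 for Slc1a3 (astrocyte). The lowest markers of the same lists were Foxj1 at 1.93, Cdh5 at 30.2, Vcan at 2.57 and Aldh1l1 at 2.73 FPKM. In summed FPKM, 8 of these 10 marker lists, the microglial one included, were highest in replicate 2, the library in which Egr1, Ier2, Btg1 and Btg2 were lowest. The exceptions were the choroid plexus and ependymal markers, highest in replicate 3, and the neuronal markers, highest in replicate 1. The total of FPKM differs between libraries. Egr1, at 949, 867 and 989.9 FPKM in replicates 1, 2 and 3, was at 1768, 1546 and 1871 TPM. Rescaling to TPM thus lowers replicate 2 against the others. The marker lists were not summed in TPM. The library order given for their sums therefore holds for FPKM and can change in TPM, for the microglial list as well. By share of counts 7 of the 10 lists were highest in replicate 2, since the border macrophage markers were then highest in replicate 1 (0.115%, against 0.111% in replicate 2). The part of other cell types in the differences between libraries was not tested. Most of the 9 genes can be expressed in many cell types, and in bulk libraries fewer cells of a type and less RNA per cell cannot be told apart.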

How the data were processed

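RNA sequencing libraries of brain microglia were analysed as 3 replicates of 1 group, taken from the sample titles. The authors deposited estimated counts per gene and FPKM per gene. The builds GRCm38 and mm10 and the tools RSEM, DESeq2 and STAR (2.7.9a) are named per the submitters' processing notes. Settings, gene annotation and library strandedness are not given in the sources used here. Of the deposited count values 4.07% were not whole (tolerance 1e-06). Sources used here did not name the inhibitor or its dose. There were 0 columns of other samples, and 12 gene names turned into dates were not joined.

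The members and the 18 other lists (190 symbols together, all found, some under older names) were chosen with earlier results of these data known. Named were the 9 genes, the 3 highest and the 1 lowest of each list by mean FPKM, all genes of lists of at most 4, and the 2 nearest other immediate early genes of each member. The marker lists are given by counts and sums. The genes listed as not detected were named after their values were seen. A gene was detected at 1 FPKM or more in all 3 libraries. Levels were log2(FPKM + 1), with a pseudocount of 1. Counts were rounded, filtered and normalised by TMM in edgeR 4.0.16 (R 4.3.3). The chi-square test used an adjusted p of 0.05. On counts simulated with counting error alone for its 13246 genes, with 200 genes changed in 1 library, the test found 75% of 1.5-fold, 94.5% of 2-fold and 100% of 4-fold changes. DESeq2 1.42.0 gave alternative size factors. Coordinates are 1-based, GRCm38, from GENCODE M21. Promoters and microRNA sequences are from RefSeq, GRCm38.p6, and 3′ regions from GENCODE M21 transcripts.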

Additional observations from a re-analysis of the deposited data

How the results depend on the processing

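The number of genes detected, the number called between libraries and the number of neighbouring pairs with ranges apart stayed within 1.5 times of the reported value under every alternative run. That limit is wide for such small numbers. Genes detected fell from 8 to 6 at a threshold of 10 FPKM, and genes called from 6 to 4 without replicate 2. Pairs with ranges apart in the order of FPKM fell from 8 to 6 in TMM-normalised CPM. The ranges of the 2 missing pairs did not overlap but stood in the reverse order. The lowest Ier5 value was 704 and the highest Ier2 value 552 CPM, and the lowest Btg1 value was 712 and the highest Ier3 value 182 CPM. The median level moved from 7.79 to 8.67 with TPM, to 9.08 with TMM-normalised CPM, and to 7.86 over the detected genes alone. TMM-normalised CPM reversed 2 steps in the order of levels, Ier2 minus Ier5 at -0.43 and Ier3 minus Btg1 at -2.05 log2 units, because this unit carries no correction for length. In the same unit Btg2 minus Ier2 went from 0.12 to 1.29, Ier5 minus Ier3 from 0.14 to 2.02 and Egr3 minus Egr4 from 1.10 to 2.33, and with a pseudocount of 0.1 Egr3 minus Egr4 was 3.63. Removing the length trend was chosen after seeing the data. It left 6 genes called. No paired analysis was possible because there is 1 group. Depth limits Egr3, with 57 to 78 counts, and Egr4, with none. With a single group of 3 libraries, no test compared conditions.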
